A study of Mus musculus with 36 samples.

Results

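The genotype difference was measured in mouse bone marrow-derived macrophages at the LPS time labelled T6, by comparing 3 libraries labelled Loxp with 3 labelled WT. These 6 libraries were identified by their group labels, out of 36 libraries in the series. The Loxp mice carried a floxed Cop1 gene, the WT mice a wild-type Cop1 gene, and both carried Rosa26-CreERT2, a Cre recombinase whose activity depends on tamoxifen. The series title calls the floxed cells Cop1-ko. The cells were grown from bone marrow for 7 days and given LPS at 100 ng per ml, and polyadenylated RNA was sequenced from 1 library per mouse. LPS, from the outer membrane of Gram-negative bacteria, is sensed by macrophages through TLR4. The sources used here give neither a tamoxifen treatment, nor the unit of the time label, nor the exon flanked by loxP sites.

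COP1 is a RING-type E3 ubiquitin ligase that works with DET1 and the CUL4-DDB1 ligase, and marks transcription factors for degradation by the proteasome. Its known substrates include JUN and the ETS factors ETV4, ETV5 and ETS2. With the pseudokinase adaptors TRIB1 and TRIB2 it also acts on factors of the C/EBP family, which drive genes of myeloid cells and of the response to LPS. COP1 acts on proteins, so the RNA of a substrate does not measure the substrate's protein.

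Library totals were 31910254 to 38429996 uniquely aligned reads in the Loxp libraries and 32365192 to 36804846 in the WT libraries. Reads were found for 17622 to 17774 genes in Loxp libraries and for 18251 to 18391 in WT libraries. The first principal component of the 6 libraries held 44.2% of the variance and separated the genotypes, and on the second, with 17.8%, WT replicate 1 stood apart from the other 5. WT replicate 2 also stood apart, with 2302 reads of Xist, a transcript of the inactive X chromosome, beside 714 reads of the Y-linked Ddx3y; the other 5 libraries had 0 to 5 reads of Xist and 890 to 1544 of Ddx3y. Results are therefore also given without this mouse.

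Cop1 was lower in the Loxp libraries, although reads of the gene remained. Cop1 (Entrez gene 26374, chromosome 1, 159232156 to 159354872 in GRCm38.p6) had 5.37, 8.71 and 7.41 CPM in the Loxp libraries, against 12.9, 11.8 and 12.2 CPM in the WT libraries. Every Loxp library lay below every WT library, and Loxp replicate 2 lay closest to the WT values. The difference was log2 fold change -0.77 ± 0.12 (SE), adjusted p = 1.10e-04, a 1.71-fold lower level. The count covers the whole gene model, so it does not show which part of the transcript was still made. The same fit gave a Cop1 log2 fold change of -0.70 at T0, -1.21 at T2.5, -1.13 at T4, -1.06 at T9 and -0.83 at T13, with the same mice.

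Across the 15685 genes tested, 1224 (7.8%) differed between genotypes at an adjusted p under 0.05 in edgeR's quasi-likelihood test. Of these, 657 (4.19%) were higher and 567 (3.61%) lower in Loxp cells. The changes had different shapes in the 2 directions. The higher genes were mostly abundant and moved little: their median log2 fold change was 0.40, a 1.32-fold difference, and their median WT level was 79.9 CPM (read counts scaled to a common library size). The lower genes were mostly scarce and moved more, with a median log2 fold change of -1.50 and a median WT level of 4.73 CPM, beside 7.34 CPM over all genes tested. A difference of at least 2-fold was reached by 48 higher and 415 lower genes. In 1204 of the 1224 the Loxp and WT libraries did not overlap, beside 28.7% of all genes tested.

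The count of 1224 moved with single mice: it was 494 without Loxp replicate 1, 537 without Loxp replicate 2, 537 without Loxp replicate 3, 470 without WT replicate 3, 1387 without WT replicate 1 and 925 (582 higher, 343 lower) without WT replicate 2. It also depended on scaling. TMM scaling (edgeR's correction for RNA composition) left the median log2 fold change of all genes at 0.06. Scaling by library totals moved that median by -0.19, and 127 genes were then higher and 1093 lower; with the size factors of DESeq2 the split was 466 higher and 603 lower. Of the 1224 genes, 2 changed sign with library totals.

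**Figure D1:**
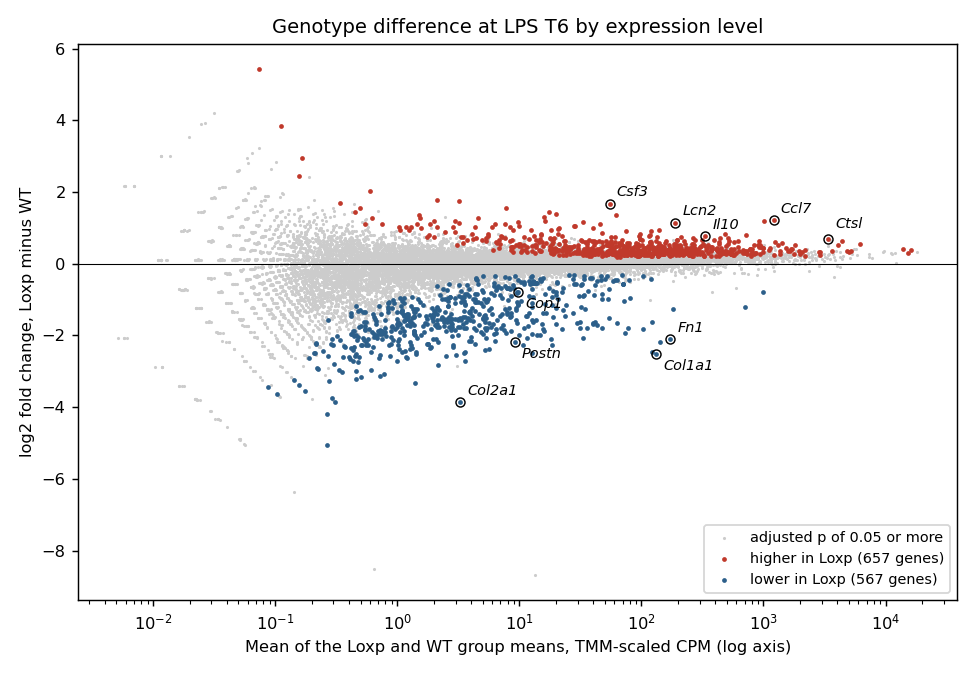
Log2 fold change (Loxp minus WT, vertical axis) against the mean of both group means in TMM-scaled CPM (horizontal log axis), 1 point per gene tested. The 657 genes higher in Loxp cells (red) lie close to 0 and mostly at high levels, and the 567 lower genes (blue) reach further from 0 and lie mostly at low levels; ringed points carry gene names, and the lowest grey point is Xist, read in WT replicate 2.

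The highest changes included secreted proteins and surface receptors of myeloid cells. Csf3, which encodes G-CSF, the growth factor of neutrophils, had 83.2, 103 and 65.3 CPM in the Loxp libraries, against 30.4, 23.6 and 24.6 CPM in the WT libraries. All 3 Loxp libraries lay above all 3 WT libraries, and the fitted difference was 3.198-fold (log2 fold change 1.68 ± 0.20 (SE), adjusted p = 4.01e-06). Ccl7 and Ccl2, chemokines that draw monocytes through CCR2, were the most abundant of the 15 genes with the highest changes. Ccl7 had 1864, 1731 and 1473 CPM in the Loxp libraries, against 728, 781 and 687 CPM in the WT libraries (log2 fold change 1.21 ± 0.21 (SE), adjusted p = 4.11e-04). Ccl2 had 1409, 1584 and 1215 CPM in the Loxp libraries, against 623, 684 and 519 CPM in the WT libraries (log2 fold change 1.20 ± 0.19 (SE), adjusted p = 1.14e-04). For both chemokines the WT libraries lay close together and well under the Loxp libraries.

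Antimicrobial and protease-regulating proteins were among these 15 genes. Lcn2, which binds bacterial siderophores, had 235, 299.9 and 247 CPM in the Loxp libraries, against 109, 96.6 and 147 CPM in the WT libraries. Slpi, an inhibitor of neutrophil serine proteases, had 49.4, 52.8 and 36.5 CPM in the Loxp libraries, against 20.9, 20.6 and 20.9 CPM in the WT libraries. Ltf, the iron-binding lactoferrin of granules, had 10.99, 9.79 and 10.7 CPM in the Loxp libraries, against 4.795, 5.09 and 4.64 CPM in the WT libraries. In each the groups did not overlap, and the WT libraries of Slpi were nearly equal to each other. Their adjusted p-values were 4.20e-04 for Lcn2, 2.40e-04 for Slpi and 5.22e-04 for Ltf.

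Of the 15 genes, 11 had a promoter window in the RefSeq table, reaching 250 bases before the start of the gene and 50 after it. These windows were searched for TTGCNNAA, a form of the C/EBP binding motif, on both strands. Lcn2, Slpi and Ltf were the 3 genes whose window held it, and they are shown so that its place and neighbours can be read. Capitals mark the motif, and each line runs 5′ to 3′ on the strand of the gene, from RefSeq on GRCm38.p6. Slpi lies at chr2:164356458-164356757 on the minus strand, Lcn2 at chr2:32387690-32387989 on the minus strand, and Ltf at chr9:111019042-111019341 on the plus strand.
Slpi: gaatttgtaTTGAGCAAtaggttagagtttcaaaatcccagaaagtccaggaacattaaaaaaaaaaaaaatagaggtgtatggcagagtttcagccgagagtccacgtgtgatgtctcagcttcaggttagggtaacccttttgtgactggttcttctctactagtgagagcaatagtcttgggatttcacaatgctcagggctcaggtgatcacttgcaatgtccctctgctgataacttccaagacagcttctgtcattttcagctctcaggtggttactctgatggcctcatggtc
Lcn2: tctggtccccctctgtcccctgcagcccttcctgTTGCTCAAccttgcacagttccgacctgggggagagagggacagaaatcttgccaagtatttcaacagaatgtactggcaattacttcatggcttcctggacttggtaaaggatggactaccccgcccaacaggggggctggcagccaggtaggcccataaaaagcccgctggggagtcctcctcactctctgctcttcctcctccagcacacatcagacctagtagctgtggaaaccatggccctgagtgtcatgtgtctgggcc
Ltf: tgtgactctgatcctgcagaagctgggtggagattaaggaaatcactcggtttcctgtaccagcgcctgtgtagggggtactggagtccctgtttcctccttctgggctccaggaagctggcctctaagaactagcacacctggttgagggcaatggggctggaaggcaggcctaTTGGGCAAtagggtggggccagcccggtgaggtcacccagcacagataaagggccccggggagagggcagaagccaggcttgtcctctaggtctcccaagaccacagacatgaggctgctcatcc
The first base of the motif lay at -241 in Slpi, -216 in Lcn2 and -75 in Ltf, counted from the start of the gene. Over all tested genes 8.85% of 14602 windows held the motif; the share was 11.1% of 685 windows for the 657 higher genes and 5.81% of 516 windows for the 567 lower genes. These shares describe letters in the windows and do not measure binding.

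Cell surface receptors were among the other high changes. Ptgir, the prostacyclin receptor, had 24.8, 37.5 and 23.7 CPM in the Loxp libraries, against 11.5, 9.03 and 12.5 CPM in the WT libraries (log2 fold change 1.38 ± 0.24 (SE), adjusted p = 3.95e-04). Prokr1, a receptor of the peptide prokineticin, had 20.2, 32.5 and 23.4 CPM in the Loxp libraries, against 10.3, 7.58 and 9.96 CPM in the WT libraries. Trem1, which amplifies inflammatory signals in myeloid cells, had 20.2, 27.7 and 19.5 CPM in the Loxp libraries, against 6.58, 9.41 and 13.2 CPM in the WT libraries. None of the 3 overlapped between genotypes, and Loxp replicate 2 was the highest library in all of them. Bst1, the ectoenzyme CD157, averaged 88.5 ± 23.97 CPM in Loxp cells and 34.6 ± 0.897 CPM in WT cells (SD, n = 3 each), and Itgb7, the integrin beta 7 chain, 22.8 ± 7.04 CPM in Loxp cells and 9.19 ± 0.351 CPM in WT cells. Ifitm6 of the interferon-induced transmembrane family, the small GTPase gene Rhov, the SH2 adaptor gene Sh2d3c and the serotonin receptor gene Htr2b completed the set, with log2 fold changes of 1.57, 1.27, 1.17 and 1.12 in that order. Loxp replicate 2 was the highest Loxp library in 13 of the 15 genes and Loxp replicate 3 the lowest in 11. Htr2b missed the threshold without Loxp replicate 2 or without WT replicate 3; the other 14 genes passed under all 17 alternative settings.

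**Figure D2:**
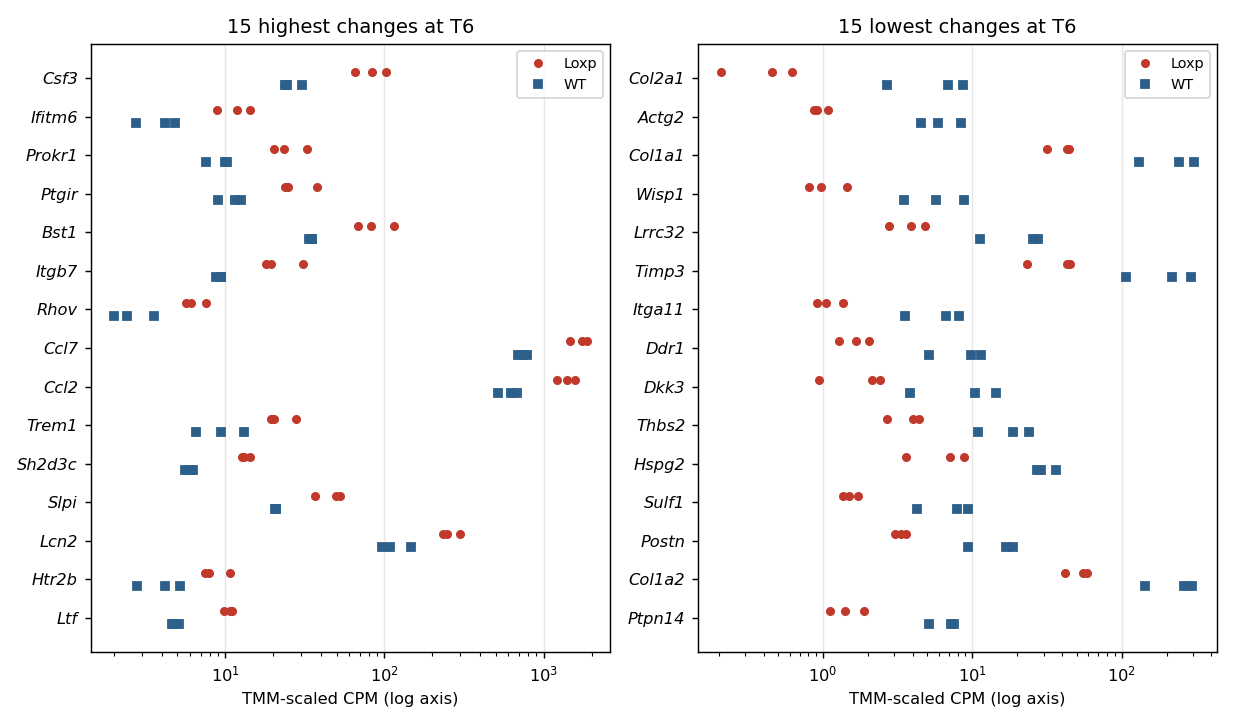
TMM-scaled CPM (log axis) of the 15 genes with the highest and the 15 with the lowest change at T6, 1 point per library (Loxp circles, above; WT squares, below). The Loxp and WT libraries of every gene are apart; among the lower genes the WT libraries are spread more widely than among the higher genes.

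The lowest changes included many genes of the extracellular matrix and of the cells that make it. Col1a1, a chain of type I collagen, had 43.1, 31.7 and 44.3 CPM in the Loxp libraries, against 131, 305 and 241 CPM in the WT libraries (log2 fold change -2.51 ± 0.39 (SE), adjusted p = 1.32e-04). Col1a2, the other chain, had 58.95, 41.8 and 54.8 CPM in the Loxp libraries, against 143, 294 and 263 CPM in the WT libraries (log2 fold change -2.17 ± 0.36 (SE), adjusted p = 2.76e-04). Timp3, a matrix-bound inhibitor of metalloproteinases, had 45.3, 23.3 and 43.3 CPM in the Loxp libraries, against 107, 292 and 217 CPM in the WT libraries (log2 fold change -2.46 ± 0.43 (SE), adjusted p = 4.24e-04). In all 3 genes the Loxp libraries lay below the WT libraries, and WT replicate 1 was the WT library closest to them.

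Col2a1, the chain of type II collagen of cartilage, had the lowest log2 fold change of the named genes at -3.85 ± 0.81 (SE), with 0.624, 0.209 and 0.456 CPM in the Loxp libraries, against 2.69, 6.92 and 8.72 CPM in the WT libraries. Postn (periostin), Thbs2 (thrombospondin 2) and Hspg2 (perlecan), all secreted matrix proteins, had log2 fold changes of -2.17, -2.27 and -2.25 in that order. The collagen-binding integrin gene Itga11 (-2.46) and the collagen receptor kinase gene Ddr1 (-2.40) were lower too, as were Actg2 of smooth muscle actin (-2.72) and Sulf1, which trims heparan sulfate (-2.23). Wisp1 (-2.49), Dkk3 (-2.39), Lrrc32, whose product GARP holds latent TGF-beta (-2.49), and the phosphatase gene Ptpn14 (-2.17) made up the rest. WT replicate 1 was the lowest WT library in 14 of these 15 genes, WT replicate 2 was the highest in 14, and Loxp replicate 2 was the lowest Loxp library in 13. Dkk3 missed the threshold without WT replicate 3 or any 1 of the Loxp mice, and the other 14 genes passed under all 17 alternative settings.

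Markers of stromal cells moved with these genes. Of 16 stromal markers tested, 13 fell and 0 rose, where 3.61% of all genes tested fell and 4.19% rose; all 16 had a log2 fold change below 0, with a median of -1.83 beside 0.06 over all genes. Their summed level was 385, 249 and 381 CPM in the Loxp libraries, against 910, 1836 and 1474 CPM in the WT libraries. Col1a1, Col1a2, Postn and Timp3, described above, are members of this list. Fn1, the gene of fibronectin, had 79.9, 40.8 and 73.8 CPM in the Loxp libraries, against 216, 364 and 256 CPM in the WT libraries, and Col5a1, a minor fibrillar collagen, 7.95, 5.33 and 7.41 CPM in the Loxp libraries, against 22.3, 36.1 and 29.4 CPM in the WT libraries. The 3 markers that did not pass were Dcn at 11.4 CPM in Loxp cells against 16.3 CPM in WT cells, Lum at 0.23 CPM in Loxp cells against 0.432 CPM in WT cells and Lepr at 0.139 CPM in Loxp cells against 0.304 CPM in WT cells. Between 10 and 13 markers fell when any 1 mouse was left out, 12 of them without WT replicate 2. Before LPS, at T0, 12 of the 16 markers were already called lower and 0 higher, with a median of -1.77. In bulk RNA, fewer cells of a type and less RNA per cell cannot be told apart, and the part of stromal cells in the other differences was not tested.

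Markers of macrophages were abundant in every library, with a summed level of 41872, 38909 and 39898 CPM in Loxp libraries against 34150, 31342 and 34866 CPM in WT libraries. Of 15 tested, 5 rose (33.3%, beside 4.19% of all genes) and 0 fell. Among the risers were Itgam (0.40) and Fcgr1 (0.35), surface receptors, and Lyz2 (0.40), lysozyme. Mpeg1 (0.34), a pore-forming protein, also rose and was picked after its value was seen. The median log2 fold change of the 15 was 0.19, but with library totals it was below 0, 0 rose and 1 fell. The count was 0 without Loxp replicate 1, 2 without Loxp replicate 2, 1 without Loxp replicate 3 and 3 without WT replicate 3. Reads of the neutrophil marker Ly6g were at 0 in both genotypes. Markers of lymphocytes and of erythroid, platelet and mast cells had 0 calls among 5 tested each, with summed levels of at most 25.1 CPM in Loxp and 30.04 CPM in WT libraries.

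Of the dendritic cell markers 3 of 9 tested fell (33.3%, beside 3.61% of all genes) and 0 rose. Of the 9, 4 had a log2 fold change above 0, and the median was -0.83. Summed levels were 100.2, 85.7 and 98.8 CPM in Loxp libraries against 141, 184 and 172 CPM in WT libraries. Fscn1, the actin bundler of mature dendritic cells, averaged 54.8 ± 5.77 CPM in Loxp cells and 106 ± 12.5 CPM in WT cells. Ccl22, a chemokine that attracts T cells through CCR4, had 13.03, 11.6 and 14.7 CPM in the Loxp libraries, against 24.2, 37.9 and 34.1 CPM in the WT libraries (log2 fold change -1.29 ± 0.18 (SE), adjusted p = 2.75e-05). The chemokine receptor gene Ccr7 had 2.23 CPM in Loxp cells against 4.95 CPM in WT cells (adjusted p = 0.0434). The defining markers Flt3, Cd209a and Siglech had too few reads to be tested. The count was 1 without Loxp replicate 2 and 1 without WT replicate 3. Of 9 endothelial markers, 1 rose (11.1%, beside 4.19% of all genes) and 0 fell. Of these 9, 2 had a log2 fold change above 0, and the median was -0.40. The riser was Eng (0.42), the TGF-beta co-receptor endoglin that macrophages also make. Without WT replicate 1, 2 of these markers fell; 0 rose without any 1 of the Loxp mice, without WT replicate 3 or with library totals.

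**Figure D3:**
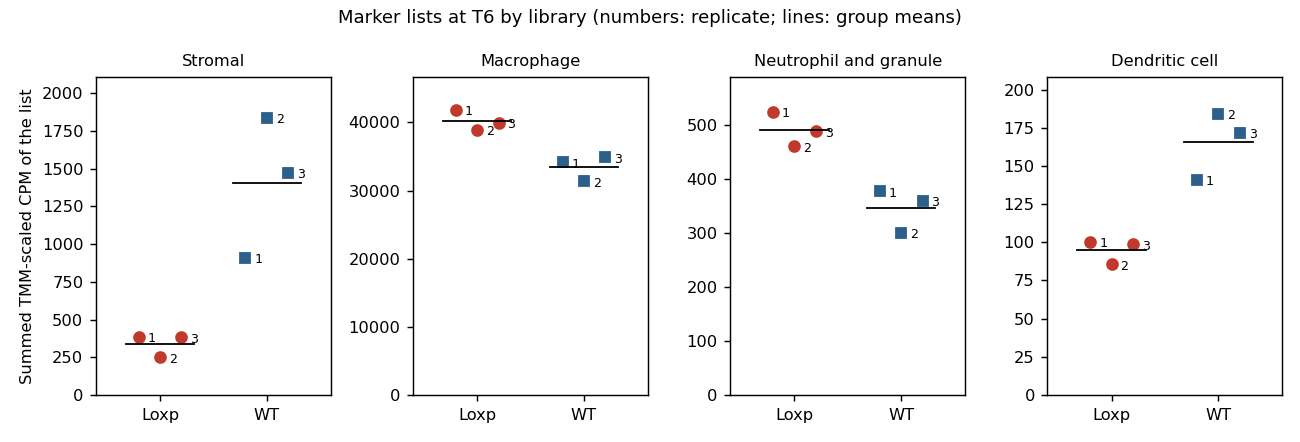
Summed TMM-scaled CPM of 4 marker lists in each T6 library (vertical axes start at 0; Loxp left, WT right; numbers are replicates, lines group means). Stromal sums are 249 to 385 CPM in Loxp libraries and 910 to 1836 CPM in WT libraries, while macrophage sums are 38909 to 41872 CPM in Loxp and 31342 to 34866 CPM in WT libraries.

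Several reported myeloid targets of the C/EBP family were higher. Of 29 genes tested, the factors included, 11 rose (37.9%, beside 4.19% of all genes) and 0 fell. The median log2 fold change of the 29 was 0.43 beside 0.06 over all genes. The list was chosen with earlier results of these data known, so its share describes these genes and does not test the family. Mmp8, the neutrophil collagenase, had 34.6, 39.99 and 39.98 CPM in the Loxp libraries, against 18.2, 17.9 and 18.6 CPM in the WT libraries (log2 fold change 1.07 ± 0.12 (SE), adjusted p = 2.48e-06). With Csf3, Ifitm6 and Lcn2 it had the smallest adjusted p of the list. Of the 29 genes, 7 were also on the list of neutrophil and granule markers, and 5 of these rose; of the 22 others, 6 rose. The count was 11 without WT replicate 2, 7 without Loxp replicate 1 and 7 with library totals, where 0 fell and the median stayed above 0. Before LPS, at T0, 11 genes of the list were already called higher and 0 lower, with a median of 0.35.

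The neutrophil and granule list had a summed level of 524, 460 and 488 CPM in Loxp libraries against 377, 301 and 359 CPM in WT libraries. Of 13 tested, 5 rose (38.5%, beside 4.19% of all genes) and 0 fell. They were Mmp8, Ltf, S100a8, an alarmin subunit (0.63), Csf3r, the receptor of G-CSF (0.46), and Ngp, a granule protein (0.62), which was picked after its value was seen. The granule enzyme genes of immature cells did not pass: Mpo had 0.54 CPM in Loxp cells against 1.62 CPM in WT cells and Elane 0.139 CPM in Loxp cells against 0.362 CPM in WT cells. The count of 5 was 2 without Loxp replicate 1, 2 without Loxp replicate 3, and 3 without Loxp replicate 2, WT replicate 1 or WT replicate 3. It was 2 with library totals.

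The C/EBP factors themselves did not pass the test. Cebpb, itself a gene that LPS induces, had 839.7, 883 and 712 CPM in the Loxp libraries, against 645, 632 and 744 CPM in the WT libraries (log2 fold change 0.27 ± 0.14 (SE), adjusted p = 0.262). Cebpd had 181, 152 and 121 CPM in the Loxp libraries, against 108, 105 and 122 CPM in the WT libraries (adjusted p = 0.0712), and Cebpa 7.91, 9.58 and 9.301 CPM in the Loxp libraries, against 10.8, 9.03 and 11.5 CPM in the WT libraries (adjusted p = 0.537). The libraries of the genotypes overlapped in all 3 genes.

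Among 19 genes of the COP1 ligase, its adaptors and its substrates, 1 rose (5.26%, beside 4.19% of all genes) and 2 fell (10.5%, beside 3.61%), of which 1 was Cop1 itself. Trib1, the adaptor that brings C/EBP factors to COP1, had 21.98, 32.6 and 27.6 CPM in the Loxp libraries, against 19.5, 16.7 and 23.8 CPM in the WT libraries (log2 fold change 0.45 ± 0.13 (SE), adjusted p = 0.0314); the groups overlapped, since Loxp replicate 1 lay under WT replicate 3. Etv4 was lower than in WT cells at levels near the floor of detection, with 0.208, 0.0348 and 0.0702 CPM in the Loxp libraries, against 0.254, 0.796 and 0.809 CPM in the WT libraries (adjusted p = 0.0162). The substrate genes Jun (84.8 CPM in Loxp cells against 66.3 CPM in WT cells, adjusted p = 0.0757), Ets2 (330.0 CPM in Loxp cells against 292 CPM in WT cells, adjusted p = 0.369) and Etv5 (2.21 CPM in Loxp cells against 2.47 CPM in WT cells, adjusted p = 0.657) did not pass, though Jun passed without Loxp replicate 2. Trib1 missed the threshold under 11 of 17 alternative settings. These were either other scaling, a mean of at least 5 CPM, the T6 libraries alone with or without the replicate block, and limma-trend. It also missed without Loxp replicate 2, Loxp replicate 3, WT replicate 1, WT replicate 2 or the library Loxp T9 replicate 2. Etv4 missed it under 5 of 16 settings: without Loxp replicate 2, Loxp replicate 3 or WT replicate 3, with limma-trend, and with the replicate block on the T6 libraries alone.

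Most cytokines did not pass the test at T6, and a few differed. Of 31 tested, 5 rose (16.1%, beside 4.19% of all genes) and 1 fell (3.23%, beside 3.61%), with a median log2 fold change of 0.24. Il10, the main anti-inflammatory cytokine of macrophages, had 432, 407 and 425 CPM in the Loxp libraries, against 261, 230.2 and 247 CPM in the WT libraries (log2 fold change 0.78 ± 0.17 (SE), adjusted p = 0.00332). The genotypes did not overlap, and the 3 libraries of each were close together. Osm, of the IL-6 family, had 22.9, 25.7 and 17.2 CPM in the Loxp libraries, against 14.1, 13.9 and 12.3 CPM in the WT libraries (adjusted p = 0.00683). Il19 (1.00), an IL-10 relative, and Il1f9 (0.67), an IL-1 relative, also rose and were picked after their values were seen. Vegfa, the endothelial growth factor, fell, with 23.8, 17.3 and 20.1 CPM in the Loxp libraries, against 32.2, 57.9 and 56.5 CPM in the WT libraries. Vegfa missed the threshold without Loxp replicate 2 or WT replicate 3. The count of risers was 3 without Loxp replicate 1, 3 without WT replicate 3 and 3 with library totals.

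The cytokines of the first response did not pass the test. Tnf had 2459, 2749 and 2413 CPM in the Loxp libraries, against 2647, 1887 and 1789 CPM in the WT libraries (adjusted p = 0.436). Il6 averaged 887 ± 72.7 CPM in Loxp cells and 789.9 ± 90.03 CPM in WT cells (adjusted p = 0.755), and Il1b 4153 ± 169 CPM in Loxp cells and 4392 ± 174 CPM in WT cells (adjusted p = 0.918). In each of these 3 genes the libraries of the genotypes overlapped. Il12b, a subunit of IL-12 and IL-23, had 395, 368 and 602 CPM in the Loxp libraries, against 770.0, 676 and 734 CPM in the WT libraries (log2 fold change -0.68 ± 0.29 (SE), adjusted p = 0.174). Its libraries did not overlap, and its difference passed when the T6 libraries were fitted alone and with limma-trend. Ifnb1, the gene of interferon beta, had 9.39 CPM in Loxp cells against 7.99 CPM in WT cells, Nos2, the inducible nitric oxide synthase, 4781 CPM in Loxp cells against 4153 CPM in WT cells, Ptgs2, the inducible cyclooxygenase, 4757 CPM in Loxp cells against 3779 CPM in WT cells, and Arg1, arginase, 1.76 CPM in Loxp cells against 0.882 CPM in WT cells; their adjusted p-values were 0.722, 0.784, 0.4 and 0.211 in that order.

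Of 24 chemokines, 7 rose (29.2%, beside 4.19% of all genes) and 3 fell (12.5%, beside 3.61%). The median log2 fold change of the 24 was 0.15, and -0.05 with library totals. Ccl6, which attracts monocytes and macrophages in mice, had 515, 462 and 469.8 CPM in the Loxp libraries, against 282, 300.3 and 332 CPM in the WT libraries (log2 fold change 0.66 ± 0.11 (SE), adjusted p = 2.68e-04). Ccl2, Ccl7 and Ccl6 were the risers with the smallest adjusted p. The chemokines that fell were Ccl22, Cxcl5 (-1.72), which attracts neutrophils, and Cx3cl1 (-1.12), fractalkine; the last 2 were picked after their values were seen. The counts of risers and fallers were 4 and 1 without Loxp replicate 2, 3 and 1 without Loxp replicate 3, 4 and 1 without WT replicate 2, 3 and 1 without WT replicate 3, and 5 and 1 without Loxp replicate 1. With library totals 3 rose and 3 fell.

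Among 32 receptors of chemoattractants and cytokines, 5 rose (15.6%, beside 4.19% of all genes) and 2 fell (6.25%, beside 3.61%). The median log2 fold change of the 32 was 0.18, and -0.02 with library totals. C5ar1, the receptor of the complement peptide C5a, had 536, 524 and 467 CPM in the Loxp libraries, against 326, 382 and 345 CPM in the WT libraries (log2 fold change 0.54 ± 0.094 (SE), adjusted p = 5.03e-04). C3ar1, the receptor of C3a, averaged 2499 ± 249.6 CPM in Loxp cells and 1909 ± 99.5 CPM in WT cells, and Csf3r 352 ± 29.8 CPM in Loxp cells and 256 ± 43.99 CPM in WT cells. Il1rl1, the receptor of IL-33, fell, with 1.42, 0.801 and 1.33 CPM in the Loxp libraries, against 3.09, 5.61 and 4.14 CPM in the WT libraries (adjusted p = 0.00115). The count of risers was 2 without Loxp replicate 1, 2 without Loxp replicate 3, 2 without WT replicate 3, and 3 without Loxp replicate 2, WT replicate 1 or WT replicate 2, and 1 with library totals. The count of fallers was 3 without WT replicate 1 and 1 without any 1 of the other 5 mice.

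At T6, 1 gene of the 40 on the list of interferon-stimulated genes rose (2.5%, beside 4.19% of all genes) and 0 fell. Isg20, an exonuclease of antiviral defence, had 258, 283 and 270.2 CPM in the Loxp libraries, against 199.9, 188 and 210.2 CPM in the WT libraries (log2 fold change 0.44 ± 0.11 (SE), adjusted p = 0.0103), and it missed the threshold without any 1 of the Loxp mice and with library totals. The median of the list was 0.18, and -0.01 with library totals. Before LPS, at T0, 31 of the 40 were higher in Loxp cells, with a median of 0.65, where 5.6% of all genes tested were higher and 3.97% lower. The difference between the T6 and the T0 genotype differences passed for 8 of the 40.

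Some lysosomal genes were higher, by small amounts. Of 30 tested, 9 rose (30%, beside 4.19% of all genes) and 0 fell. All 30 had a log2 fold change above 0, and the median was 0.22. The lists of MHC class I presentation and glycolysis leaned the same way. On these, 17 of 17 and 22 of 24 genes were above 0, with medians of 0.19 and 0.21. Only 1 of the 17 and 0 of the 24 passed the test, and with library totals the medians were -0.007 and 0.015. Ctsl, the cysteine protease cathepsin L, had 4099, 4402 and 4063 CPM in the Loxp libraries, against 2722, 2654 and 2416 CPM in the WT libraries (log2 fold change 0.69 ± 0.082 (SE), adjusted p = 4.01e-06). Ctss, the cathepsin that trims the invariant chain, averaged 5835 ± 95.6 CPM in Loxp cells and 4548 ± 219 CPM in WT cells, and Ctsb 16808 ± 465 CPM in Loxp cells and 13535 ± 846 CPM in WT cells. Neu1, a lysosomal sialidase, had a log2 fold change of 0.33. The count was 8 without WT replicate 2, but 2 without Loxp replicate 1, Loxp replicate 2, Loxp replicate 3 or WT replicate 3, and 1 with library totals, where the median was 0.03. Ctsl passed under all 17 settings.

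Scavenger, Fc and efferocytosis receptors had 7 risers (25%, beside 4.19% of all genes) and 0 fallers among 28, and a median of 0.22. Msr1, the class A scavenger receptor, averaged 1950.0 ± 154 CPM in Loxp cells and 1481 ± 47.9 CPM in WT cells (adjusted p = 0.0141). Itgb2, the common chain of leukocyte integrins, averaged 799 ± 28.1 CPM in Loxp cells and 661 ± 22.3 CPM in WT cells (adjusted p = 0.00509). The count was 3 without Loxp replicate 1 or 2, 2 without Loxp replicate 3, 4 without WT replicate 3, and 2 with library totals. Of 32 pattern recognition and inflammasome genes 4 rose (12.5%, beside 4.19% of all genes) and 1 fell (3.1%, beside 3.61%). Clec4d, a C-type lectin receptor (0.54), Msr1, Casp1, the inflammasome protease (0.37), and Tlr13, a sensor of bacterial ribosomal RNA (0.59), rose. Tlr9 (-0.60), picked after its value was seen, fell. On this list 1 gene rose without Loxp replicate 2, Loxp replicate 3 or WT replicate 3, 2 rose without WT replicate 2, and 1 rose with library totals, where the median of the list was below 0. Tlr9 passed without WT replicate 2 and missed the threshold without any 1 of the other 5 mice.

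Extracellular proteases and coagulation genes went both ways. Among 26 there were 6 risers (23.1%, beside 4.19% of all genes) and 4 fallers (15.4%, beside 3.61%). Adam8, a membrane metalloprotease of myeloid cells, had 1473, 1720.3 and 1353 CPM in the Loxp libraries, against 935, 1044 and 991 CPM in the WT libraries (log2 fold change 0.61 ± 0.11 (SE), adjusted p = 5.07e-04). Plat, the tissue plasminogen activator, fell, with 3.497, 3.14 and 3.76 CPM in the Loxp libraries, against 6.47, 7.72 and 7.38 CPM in the WT libraries (log2 fold change -1.05 ± 0.20 (SE), adjusted p = 0.00112). Timp3 and Mmp8 are described above. Timp3 is also on the stromal list. Risers numbered 3 without Loxp replicate 3; fallers numbered 2 without Loxp replicate 2, 2 without WT replicate 3 and 8 without WT replicate 1. With library totals 4 rose and 7 fell.

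Some genes of sterol and fatty acid synthesis were lower. Of 28 tested, 5 fell (17.9%, beside 3.61% of all genes) and 0 rose. Of the 28, 5 had a log2 fold change above 0, and the median was -0.27. Stard4, a sterol carrier, had 6.04, 6.24 and 6.53 CPM in the Loxp libraries, against 10.1, 10.4 and 9.65 CPM in the WT libraries (log2 fold change -0.68 ± 0.14 (SE), adjusted p = 0.00241). Fasn, the fatty acid synthase, averaged 6.99 ± 1.03 CPM in Loxp cells and 12.03 ± 1.49 CPM in WT cells (adjusted p = 0.00264), and Scd2, a stearoyl-CoA desaturase, 2.03 ± 0.371 CPM in Loxp cells and 5.001 ± 0.718 CPM in WT cells (adjusted p = 0.00311). Hmgcs1, which makes the precursor of mevalonate, averaged 53.5 ± 2.29 CPM in Loxp cells and 72.8 ± 1.66 CPM in WT cells (adjusted p = 0.00502). The 5 genes that fell had no overlap between genotypes. Between 4 and 6 genes fell without any 1 mouse, and 13 with library totals. Ch25h, which makes 25-hydroxycholesterol, an oxysterol that restrains this pathway, is not on this list. It was the only riser among 14 LXR targets and cholesterol efflux genes tested, where 0 fell and the median was -0.03. Ch25h had 941, 1018 and 784 CPM in the Loxp libraries, against 522, 533 and 519.6 CPM in the WT libraries (log2 fold change 0.80 ± 0.20 (SE), adjusted p = 0.0104). It missed the threshold without WT replicate 3 and with library totals. Whether its rise bears on the sterol genes was not tested.

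Cell cycle and replication genes had 2 risers (6.25%, beside 4.19% of all genes) and 4 fallers (12.5%, beside 3.61%) among 32, and a median of -0.24. Ccnd1, the G1 cyclin D1, rose, with 147, 153 and 129 CPM in the Loxp libraries, against 80.98, 117 and 85.005 CPM in the WT libraries (adjusted p = 0.0165), and Mcm6 of the replicative helicase had 99.9, 121 and 99.5 CPM in the Loxp libraries, against 80.6, 91.3 and 77.2 CPM in the WT libraries (adjusted p = 0.0266). Cdc20, an activator of the anaphase-promoting complex, fell, with 0.5, 0.766 and 0.421 CPM in the Loxp libraries, against 1.13, 2.21 and 2.21 CPM in the WT libraries (adjusted p = 0.00316), and Top2a, a topoisomerase of dividing cells, had 4.87, 5.61 and 5.41 CPM in the Loxp libraries, against 6.68, 10.2 and 7.47 CPM in the WT libraries (adjusted p = 0.0388). Libraries of the genotypes did not overlap in these 4 genes. The count of fallers was 0 without Loxp replicate 3, 1 without Loxp replicate 1, Loxp replicate 2, WT replicate 2 or WT replicate 3, and 7 with library totals. The count of risers was 0 without Loxp replicate 1, 2 or 3 or WT replicate 3, 1 without WT replicate 1, and 0 with library totals.

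**Figure D4:**
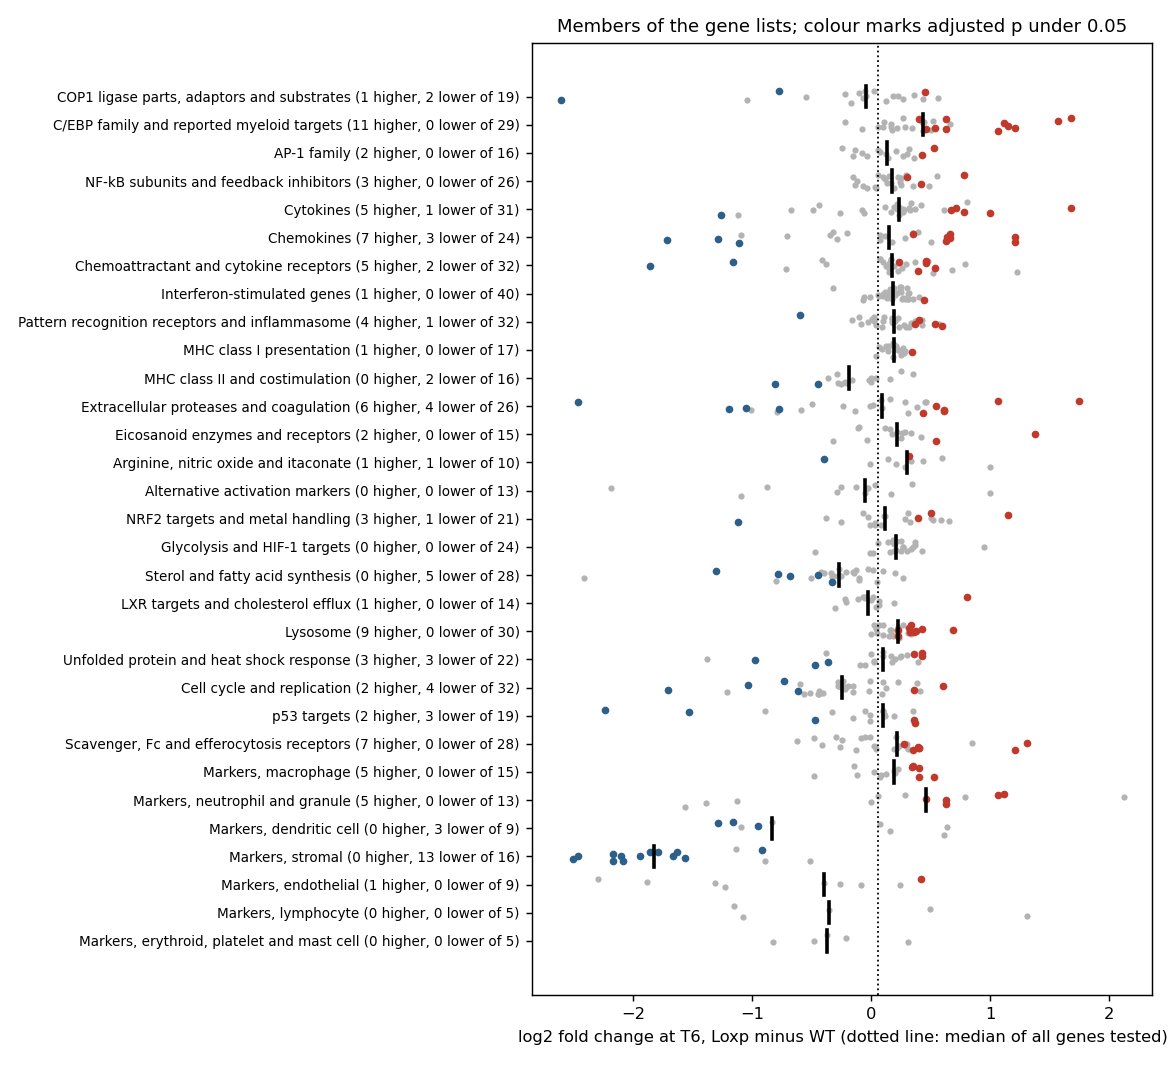
Log2 fold change at T6 (Loxp minus WT) of every tested member of the gene and marker lists, 1 point per gene; red and blue points passed the test, black bars are list medians and the dotted line is the median of all genes tested. The C/EBP list has 11 higher and 0 lower members of 29 and the stromal list 0 higher and 13 lower of 16.

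T6 was set beside the other 5 times. The same mice gave the libraries of every time, so the calls below are not independent. At T0, before LPS, 293 of the 657 higher genes were also called higher (44.6% of T6 and 33.4% of T0) and 339 of the 567 lower genes lower (59.8% of T6 and 54.4% of T0). At T2.5 1.45% of all genes tested were called higher and 2.45% lower, and these included 142 of the higher genes of T6 (21.6% of T6 and 62.3% of T2.5) and 274 of the lower ones (48.3% of T6 and 71.4% of T2.5). At T4 2.11% were called higher and 2.75% lower, including 224 of the higher genes (34.1% of T6 and 67.7% of T4) and 331 of the lower ones (58.4% of T6 and 76.6% of T4). At T9 5.92% were called higher and 4.53% lower, including 428 of the higher genes (65.1% of T6 and 46.1% of T9) and 373 of the lower ones (65.8% of T6 and 52.5% of T9). At T13 1.37% were called higher and 1.73% lower, including 112 of the higher genes (17.05% of T6 and 52.1% of T13) and 180 of the lower ones (31.7% of T6 and 66.4% of T13). Opposite calls occurred for 1 gene at T0 and 0 at the 4 other times. Gene lists also held calls at T0. Of the chemokines 12 were higher and 2 lower at T0, and of the cytokines 9 were higher and 4 lower. Of the lysosomal genes 5 were higher and 0 lower at T0, and of the sterol and fatty acid genes 0 were higher and 1 lower. In the order T0, T2.5, T4, T6, T9 and T13, Col1a1 had log2 fold changes of -2.41, -2.31, -2.51, -2.51, -2.32 and -2.57. Ctsl had log2 fold changes of 0.72, 0.70, 0.72, 0.69, 0.72 and 0.37 in this order, and Lcn2 0.31, 0.43, 0.63, 1.15, 1.53 and 0.84.

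The genotype difference at T6 was then tested against that at T0, the untreated cells, as an interaction. It differed for 39 genes (0.249%): 12 had a more positive difference at T6 and 27 a more negative one. Of the 27, 23 were higher in Loxp cells at T0, and of the 12, 8 were lower there. At T6 itself 11 of the 39 were called. With the individual as a block, 138 genes passed, among them all 39; without Loxp replicate 2 the count was 5, without Loxp replicate 3 it was 7, without WT replicate 2 it was 14, and without WT replicate 3 it was 18.

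Csf3 was the named gene of this set that was also called at T6. It had 2.03 CPM in Loxp cells against 3.07 CPM in WT cells at T0, so its interaction was 2.24 ± 0.31 (SE), adjusted p = 2.65e-04. Tnn, the matrix protein tenascin-N, had 0.72 CPM in Loxp cells against 3.75 CPM in WT cells at T0 and 12.5 CPM in Loxp cells against 11.6 CPM in WT cells at T6 (interaction 2.46 ± 0.30 (SE), adjusted p = 5.67e-05). Phlda1, a pleckstrin homology protein, had 2.64 CPM in Loxp cells against 6.57 CPM in WT cells at T0 and 41.2 CPM in Loxp cells against 28.8 CPM in WT cells at T6 (interaction 1.81 ± 0.28 (SE), adjusted p = 0.00171). Gja1, the gap junction protein connexin 43, had an interaction of 1.44 ± 0.25 (SE), adjusted p = 0.00824. Tnn, Phlda1 and Gja1 were called lower in Loxp cells at T0 and did not pass at T6, where Phlda1 passed when the T6 libraries were fitted alone.

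The other 6 named genes were higher in Loxp cells at T0 and did not pass at T6. Il6 had 2.47 CPM in Loxp cells against 0.436 CPM in WT cells at T0 and an interaction of -2.37 ± 0.45 (SE), adjusted p = 0.0144. Il12b had 2.62 CPM in Loxp cells against 0.564 CPM in WT cells at T0 and an interaction of -2.98 ± 0.55 (SE), adjusted p = 0.0106. Irg1, which makes itaconate, had 60.5 CPM in Loxp cells against 17.6 CPM in WT cells at T0 and 12420.0 CPM in Loxp cells against 10210.0 CPM in WT cells at T6 (interaction -1.50 ± 0.27 (SE), adjusted p = 0.00824). The interferon-stimulated genes Mx2 and Cmpk2 had T0 log2 fold changes of 1.17 and 1.73, and T6 log2 fold changes of 0.16 and 0.31. Fpr2, a receptor of formylated peptides, had 1.18 at T0 and 0.17 at T6.

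**Figure D5:**
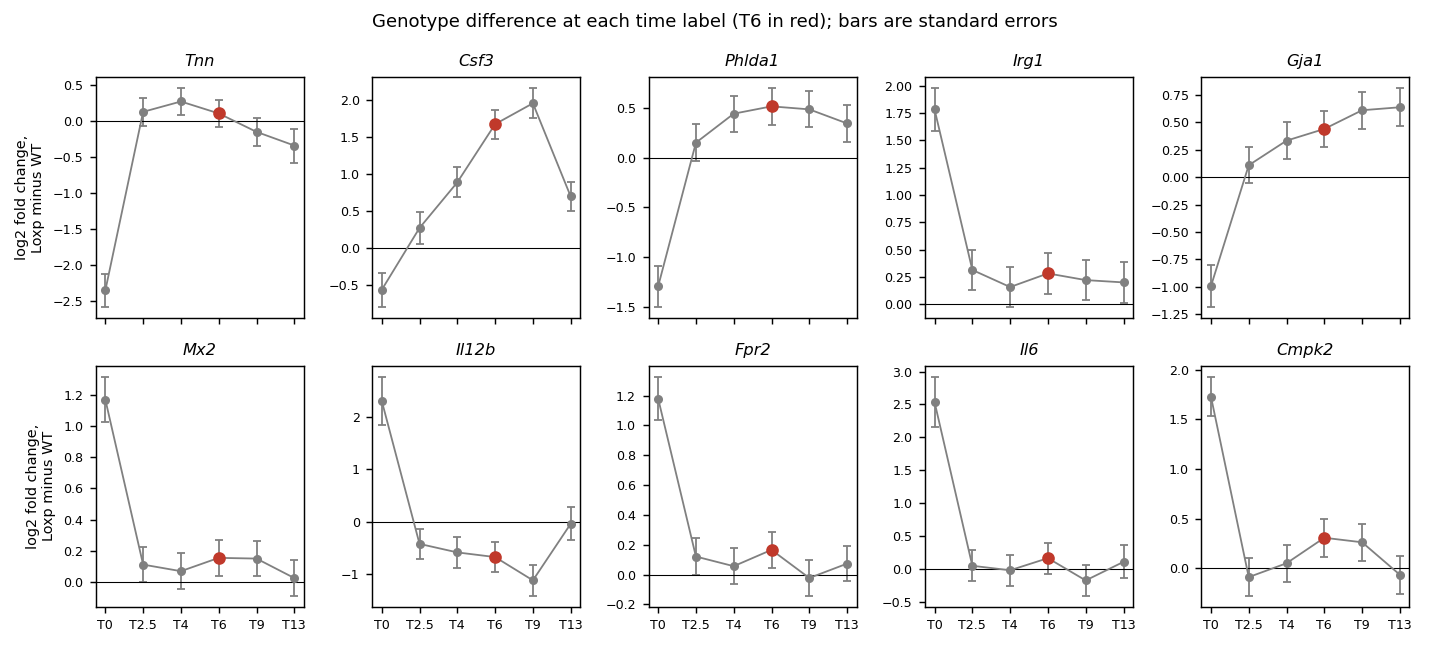
Log2 fold change (Loxp minus WT, vertical axis, with standard errors) at the 6 time labels for the 10 genes named for the T6 minus T0 interaction; T6 is red. Csf3 moves to 1.68 at T6, while Il6, Il12b, Irg1, Mx2, Fpr2 and Cmpk2 are above 0 at T0 and within 0.68 of 0 at T6.

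Against the neighbouring times no gene passed. The T6 minus T4 interaction had 0 calls in edgeR, in DESeq2, in limma-trend and in limma-voom, with 367 genes at an unadjusted p under 0.05 in edgeR. The T6 minus T9 interaction had 0 calls by the same 4 tools and 587 genes at an unadjusted p under 0.05. Both counts are smaller than a share of 0.05 of the 15685 genes tested, the share that no difference would give with independent libraries. Libraries of the same mouse were correlated and this fit left the mouse out, so its interaction p-values can be too large. With the individual as a block, both interactions again had 0 calls. The genes named next are therefore a ranking only, and none is shown to differ from T4 or T9. The 5 genes with the smallest p against T4 were Tef, Frmd6, Bcar3, Bcl2l1 and Isca1, and against T9 Rab11fip5, Nars2, Bmf, Gfod2 and Wdr36. Of these, Bcar3, an adaptor of integrin signalling, was called at T6 with 59.9, 73.4 and 54.5 CPM in the Loxp libraries, against 35.6, 26.99 and 25.3 CPM in the WT libraries (log2 fold change 1.10 ± 0.13 (SE), adjusted p = 4.01e-06), and Bcl2l1, which encodes the survival protein BCL-XL, averaged 124 ± 14.1 CPM in Loxp cells and 77.6 ± 5.49 CPM in WT cells (adjusted p = 2.43e-04). Frmd6 (-1.18), Rab11fip5 (0.32), Bmf (-1.31) and Gfod2 (-1.08) also passed at T6.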

How the data were processed

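RNA of 36 libraries was given as deposited counts: per the file headers, uniquely aligned reads per Entrez gene model, with no normalisation. The RPKM values deposited beside them were, per the file headers, adjusted by size factors by the authors. The deposited gene table gave symbols and other values such as model size. Per the submitters' processing notes reads were aligned with GSNAP to GRCm38; the sources used here give no version, annotation or strand setting. Near-identical copies (Fth1, Lyz2) may be undercounted, and overlapping genes cannot be told apart. Rfwd2 was read as Cop1; 31049 of 36528 gene IDs matched RefSeq.

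The counts entered edgeR 4.0.16 under R 4.3.3: filterByExpr, TMM, 1 mean for each of 12 groups over all 36 libraries, and the quasi-likelihood test with Benjamini-Hochberg adjustment over all genes and a threshold of 0.05. Sharing the spread over groups was chosen since 3 libraries against 3 estimate it poorly. This fit counted the 36 libraries of 6 mice as independent, with 24 residual degrees of freedom. Adjusted p-values of the T6 genotype difference can therefore be too small, and p-values of the interactions between times too large. The standard error was taken as |log2 fold change| divided by the root of F; CPM are TMM-scaled, and errors beside means are SD with n = 3. The fit was tried on simulated counts with independent libraries and with changes placed only in genes with many reads. That trial does not bear on correlation within mice or on scarce genes. Replicates were individuals, per the labels; pairs of replicates differed beyond sampling noise (chi-square per degree of freedom 8.50 to 30.3). Each individual was sampled at every time, so the individual pairs libraries across times: deviations of the same mouse at T6 and T4 correlated at 0.105 to 0.470, at T6 and T9 at 0.0954 to 0.462, and at T6 and T0 at -0.0387 to 0.429.

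Alternatives were DESeq2 size factors, library totals, no filter, a mean of at least 5 CPM, DESeq2 1.42.0, limma 3.58.1 (limma-trend on log2(RPKM + 1) with a mean RPKM of at least 0.1, and voom with a correlation of 0.148 within individuals), the T6 libraries alone, replicate blocks, leaving out each mouse, and leaving out the library Loxp T9 replicate 2, which had reads of 15045 genes. The comparison, lists and members were chosen with earlier results of these data known. Named genes are Cop1; the 15 highest and 15 lowest log2 fold changes among called genes with a group mean that reached 5 CPM in either genotype and no overlap; up to 4 called members of each list by adjusted p; a fixed set of Arg1, Cebpa, Cebpb, Cebpd, Ets2, Etv5, Ifnb1, Il1b, Il6, Il10, Il12b, Jun, Nos2, Ptgs2, Tnf and Trib1; the 10 smallest interaction p-values against T0 with at least 1 on the log2 scale; and 5 against T4 and T9 each. Unnamed gene models, pseudogenes and sex-linked genes were left out of the ranked parts. Some genes that met these rules are not reported here.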

Additional observations from a re-analysis of the deposited data

Results flagged for a closer look

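The genotype difference at T6 differed from that at T0 for 39 genes, by an edgeR quasi-likelihood test of the interaction. The named ones with a more positive difference at T6 were Tnn (2.46), Csf3 (2.24), Phlda1 (1.81) and Gja1 (1.44), given as the T6 minus the T0 log2 fold change. Those with a more negative difference at T6 were Il12b (-2.98), Il6 (-2.37), Irg1 (-1.50), Cmpk2 (-1.42), Fpr2 (-1.01) and Mx2 (-1.01). Csf3 passed under every alternative run for it, and the other 9 missed the threshold under 1 or more.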

How the results depend on the processing

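Cop1 was lower in Loxp cells and passed under all 17 settings, with log2 fold changes of -0.97 to -0.53. Of the 98 named genes called at T6 none changed sign under any setting; 49 passed under all and 49 missed the threshold under 1 or more. Of the 25 not called, 6 changed sign under 1 or more settings: with library totals Ets2 was -0.016, Il6 -0.030, Tnn -0.094, Mx2 -0.035, Fpr2 -0.028 and Wdr36 -0.12. Also of the 25, 6 were called under 1 or more: Jun without Loxp replicate 2, Phlda1 and Il12b with the T6 libraries alone, with or without the replicate block, Il12b also with limma-trend, Isca1 and Nars2 with library totals, and Tef with library totals, a mean of at least 5 CPM, DESeq2 or without the library Loxp T9 replicate 2. Leaving out 1 mouse at a time gave Tnn -0.027 to 0.19 and Wdr36 -0.0054 to 0.12. The 1224 calls at T6 became 676 with a mean of at least 5 CPM, where 8827 genes were tested, and 470 to 1387 without 1 mouse. The T6 minus T0 interaction had 39 calls, against 62 with library totals, 65 with no filter, 61 with a mean of at least 5 CPM, 138 with the replicate block of the individual, 121 with DESeq2, 12 with limma-trend and 5 to 48 without 1 mouse. The interactions with T4 and T9 had 0 calls under every setting, the individual block included. Replicate numbers did not pair mice across genotypes (correlations of -0.0883 to 0.0424). A replicate block gave 1413 calls over all libraries and 696 with the T6 libraries alone, against 965 for those 6 without it. Of these 965, 799 were among the 1224, with 323 of the 657 higher and 476 of the 567 lower genes. The share of calls that were higher, 53.7%, was 43.6% with DESeq2 size factors, 10.4% with library totals, 41.0% with no filter, 39.8% with the T6 libraries alone, 34.5% with those and the replicate block, and 42.5% without the library Loxp T9 replicate 2. The cause was not tested. Without Loxp replicate 1, 33 named genes were no longer called at T6, with the same sign: Alox5ap, Atf3, B2m, Ccnd1, Ccr7, Chac1, Ciita, Csf3r, Ctsb, Dkk3, Eng, Fas, Fcgr1, Fth1, Gch1, Gfod2, Icosl, Isg20, Itgam, Itgb2, Lyz2, Mcm6, Mdm2, Neu1, Nqo1, Rab11fip5, S100a8, Slc39a14, Slc7a1, Top2a, Xbp1, Zc3h12a and Zfp36. Without Loxp replicate 2, 35 named genes were no longer called at T6, with the same sign: Atf3, C3ar1, Casp1, Ccnd1, Ccr7, Chac1, Ciita, Ctsb, Dkk3, Eng, Etv4, Fas, Fcgr1, Fscn1, Fth1, Gch1, Gfod2, Htr2b, Icosl, Isg20, Itgam, Itgb2, Mcm6, Mdm2, Msr1, Neu1, Phlda3, S100a8, Slc7a1, Tlr13, Top2a, Trib1, Vegfa, Zc3h12a and Zfp36. Without Loxp replicate 3, 35 named genes were no longer called at T6, with the same sign: B2m, Bmf, Casp1, Ccnd1, Ccr7, Cdc20, Chac1, Ciita, Csf3r, Ctsb, Dkk3, Eng, Etv4, Fas, Fcgr1, Fth1, Gch1, Gfod2, Isg20, Itgam, Itgb2, Mcm6, Mdm2, Msr1, Neu1, Phlda3, Rab11fip5, S100a8, Slc39a14, Slc7a1, Tlr13, Top2a, Trib1, Xbp1 and Zc3h12a. Without WT replicate 1, 7 named genes were no longer called at T6, with the same sign: Chac1, Fas, Gfod2, Mcm6, S100a8, Slc7a1 and Trib1. Without WT replicate 2, 16 named genes were no longer called at T6, with the same sign: Bmf, Casp1, Ccr7, Ciita, Fas, Fcgr1, Gch1, Gfod2, Mdm2, Neu1, Slc7a1, Tlr13, Top2a, Trib1, Zc3h12a and Zfp36. Without WT replicate 3, 32 named genes were no longer called at T6, with the same sign: Atf3, Bmf, C3ar1, Casp1, Ccnd1, Ccr7, Ch25h, Chac1, Ciita, Csf3r, Ctsb, Dkk3, Eng, Etv4, Fas, Fcgr1, Fscn1, Gfod2, Htr2b, Icosl, Mcm6, Mdm2, Msr1, Neu1, Nqo1, Osm, Phlda3, Tlr13, Top2a, Vegfa, Zc3h12a and Zfp36. Genes near the floor of detection, such as Etv4, rest on few reads.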

Other observations

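The remaining lists are short, and their shares at T6 stand beside 4.19% of all genes higher and 3.61% lower. Higher and lower shares were 14.3% and 4.76% for NRF2 and metal genes, 13.6% and 13.6% for unfolded protein genes, and 10.5% and 15.8% for p53 targets. They were 11.5% and 0 for NF-kB, 12.5% and 0 for AP-1, 5.88% and 0 for MHC class I, and 0 and 12.5% for MHC class II. Eicosanoid genes had 13.3% and 0, and arginine, nitric oxide and itaconate genes 10% and 10%. Of 21 NRF2 targets and metal handling genes, 3 rose and 1 fell: Slc39a14, a zinc and iron importer, averaged 170.4 ± 4.89 CPM in Loxp cells and 120.2 ± 13.6 CPM in WT cells, Fth1, the ferritin heavy chain, 18299 ± 984 CPM in Loxp cells and 13949 ± 679.9 CPM in WT cells, and Nqo1, a quinone reductase, 2.27 ± 0.163 CPM in Loxp cells and 4.94 ± 1.604 CPM in WT cells (SD, n = 3 each); Lcn2 is the third riser. Of 22 genes of the unfolded protein and heat shock response, 3 rose and 3 fell, among them Hspa5, the chaperone BiP (0.36), Xbp1 (0.43), Atf3 (0.43) and Chac1 (-0.98). Of 19 p53 targets, Mdm2 (0.36) and Fas (0.37) rose, and Eda2r (-2.24), Phlda3 (-1.54) and Sesn2 (-0.48), the last picked after its value was seen, fell. NRF2 risers numbered 1 without Loxp replicate 1 or 3, and 0 fell without Loxp replicate 1 or WT replicate 3. Without Loxp replicate 1, 2 or 3 or WT replicate 3, 0 unfolded protein genes fell, and without WT replicate 1 it was 1; 1 rose without Loxp replicate 1. Of the p53 targets 0 rose without any 1 mouse other than WT replicate 1, where 1 rose, and 1 fell without Loxp replicate 2, Loxp replicate 3 or WT replicate 3. With library totals 1 NRF2 or metal gene rose and 2 fell. With the same scaling 0 unfolded protein genes rose and 5 fell, and 0 p53 targets rose and 4 fell.

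Of 26 NF-kB subunits and feedback inhibitors, Il10, Zfp36 (0.42), which destabilises cytokine RNA, and Zc3h12a (0.30), the RNase regnase-1, rose and 0 fell; 1 rose without Loxp replicate 1, WT replicate 2 or WT replicate 3. Of 16 AP-1 genes 2 rose, among them Atf3, and of 17 genes of MHC class I presentation 1, B2m, the light chain (5579 CPM in Loxp cells against 4409 CPM in WT cells). AP-1 risers numbered 0 without Loxp replicate 1 and 1 without Loxp replicate 3, WT replicate 1 or WT replicate 3, and 1 AP-1 gene fell without WT replicate 1; B2m missed the threshold without Loxp replicate 1 or 3. Of 16 genes of MHC class II and costimulation Ciita (-0.81), the class II transactivator, and Icosl (-0.45) fell; 0 fell without Loxp replicate 1, Loxp replicate 2 or WT replicate 3, 1 fell without Loxp replicate 3 or WT replicate 2, and 1 rose without WT replicate 1. Ptgir and Alox5ap (0.55), which serves leukotriene synthesis, rose among 15 eicosanoid genes, and 1 rose without Loxp replicate 1. Gch1 (0.31) rose and the arginine carrier gene Slc7a1 (-0.40) fell among 10 genes of arginine, nitric oxide and itaconate; 0 rose without Loxp replicate 1, Loxp replicate 3 or WT replicate 2, 2 rose without WT replicate 3, and 0 fell without any 1 mouse other than WT replicate 3. Glycolysis and HIF-1 targets had 0 calls of 24 and alternative activation markers 0 of 13, with medians of 0.21 and -0.05; edgeR was the tool, and DESeq2 called 0 glycolysis genes and 1 alternative activation marker, which fell. Without WT replicate 1, 1 glycolysis gene rose and 1 alternative activation marker fell, and 1 glycolysis gene rose without Loxp replicate 2. With library totals, risers and fallers numbered 1 and 2 for NF-kB, 0 and 1 for AP-1, 0 and 0 for MHC class I and 0 and 2 for MHC class II. They numbered 1 and 1 for eicosanoid genes, 0 and 1 for arginine, nitric oxide and itaconate genes, 0 and 0 for glycolysis and 0 and 1 for alternative activation.

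Of 111 tested genes within 10 Mb of Cop1, 11 were called (9.91%), 6 higher and 5 lower, with a median log2 fold change of 0.09. By chromosome the share was highest on chromosomes 18 (50 of 390, 12.8%) and 1 (108 of 874, 12.4%), beside 7.8% over all genes.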
